A study of Mus musculus with 8 samples.

Results

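The genes described here are 9 genes of the centrosome and the mitotic spindle pole whose loss causes primary microcephaly in people: Aspm, Wdr62, Cdk5rap2, Cep152, Cep63, Stil, Cep135, Cenpj and Mcph1. They were found by their symbols among the 23284 gene symbols of the count data. All 9 were present, and all 9 passed the filter on low counts that left 14696 genes to test. The libraries are polyA RNA of dorsal cortex taken from C57BL/6 mouse embryos at E15.5. Of the 8 libraries, 4 are labelled wild type (ErbB4+/+) and 4 carry the label ErbB4-/-, the knockout of the receptor tyrosine kinase ErbB4. The study reported removing meninges and ganglionic eminences before extraction. As it describes them, ErbB4-/- mice survive through an ErbB4 transgene that the α-MHC promoter drives in the heart. Both lines were bred as separate homozygous colonies, so colony and genotype cannot be told apart. Neither the labels nor the methods say which embryos or litters the libraries came from, and p-values measure only the spread between these libraries.

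Primary microcephaly is a reduction of brain size that begins in the fetal cortex. Apical progenitors (radial glia) divide at the ventricular surface, and each division needs a pair of centrosomes to build a spindle with the right shape and angle. A centrosome holds centrioles, which are copied once per cell cycle, inside pericentriolar material, which nucleates microtubules. Most of the 9 proteins act in these steps. Cep152 and Cep63 form a ring on the parent centriole that recruits the kinase Plk4. Stil and Cep135 build the cartwheel of the new centriole, and Cenpj sets its length. Cdk5rap2 tethers γ-tubulin complexes to the pericentriolar material. Aspm and Wdr62 act at the spindle poles, and Mcph1 restrains chromosome condensation before mitosis. When centriole copying fails in the mouse cortex, progenitors are known to be lost through p53.

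The libraries held from 28205703 to 48871480 counts, and the 9 genes had from 415 counts (Wdr62, ErbB4+/+ replicate 1) upwards in each library. Levels are given as CPM, counts scaled by the effective library size. The label of cortex was checked on the dorsal telencephalic genes Lhx2 (326 to 392 CPM) and Emx1 (59.6 to 79.9 CPM). The 5 meningeal genes summed to between 8.47 and 14.2 CPM, with Lum at 0.028 to 0.717 CPM. The 7 genes of ganglionic eminence and interneurons summed to 462 to 629 CPM in the ErbB4+/+ libraries and 454 to 639 CPM in the others. Of these 7, Nkx2-1 had the largest coefficient of variation within genotypes, 49.9%. It was at 7.63 to 24.6 CPM in the ErbB4+/+ libraries and 9.37 to 27.0 CPM in the others. Whether the amount of ganglionic eminence left in the samples differed was not tested. Erbb4 itself was not lower in the libraries labelled ErbB4-/-. Its level was 8.99, 19.9, 25.3 and 19.2 CPM in ErbB4+/+ replicates 1 to 4 and 20.9, 24.6, 20.7 and 23.5 CPM in the libraries labelled ErbB4-/- (edgeR log2 fold change 0.28 ± 0.23 (SE), adjusted p = 0.812). What the allele removes is not given in the sources used here, so this gene count does not check the labels. Xist, expressed from the inactive X chromosome, was at 983 to 1687 CPM in ErbB4+/+ replicates 1 to 3 and at 2.70 to 3.82 CPM in the other 5 libraries. The Y-linked gene Ddx3y was at 76.4 CPM in ErbB4+/+ replicate 4, at 78.7 to 80.9 CPM in the libraries labelled ErbB4-/-, and under 1 CPM in the other 3. The labels do not give sex. By these 2 genes ErbB4+/+ replicates 1 to 3 read as female and the other 5 libraries as male. Sex and genotype can thus be only partly told apart here. ErbB4+/+ replicate 1 stood apart in a further respect. Its deviation from the mean of all libraries fell with transcript length (Spearman rho across 14281 genes -0.58), against 0.04 to 0.22 in the other 7.

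None of the 9 genes changed between the genotypes at an adjusted p of 0.05 (edgeR's quasi-likelihood test, Benjamini-Hochberg adjustment over all genes tested), a threshold that 0.0272% of all tested genes passed. With DESeq2 and with limma-voom the number was 0 as well. At an unadjusted p under 0.05, 1 of the 9 passed, Cep63, which was lower, where 5.53% of all genes passed in either direction and 2.52% were lower. No gene of the 9 had genotypes that did not overlap, where 3.34% of all genes did. The log2 fold changes of 7 of the 9 were below 0, against 50.8% of all genes, and their median was -0.04, against -0.002 for all genes. In tissue RNA such as this, fewer progenitor cells and less of a transcript per cell cannot be told apart. The plot of CPM by library shows the 9 genes in full.

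**Figure D1:**
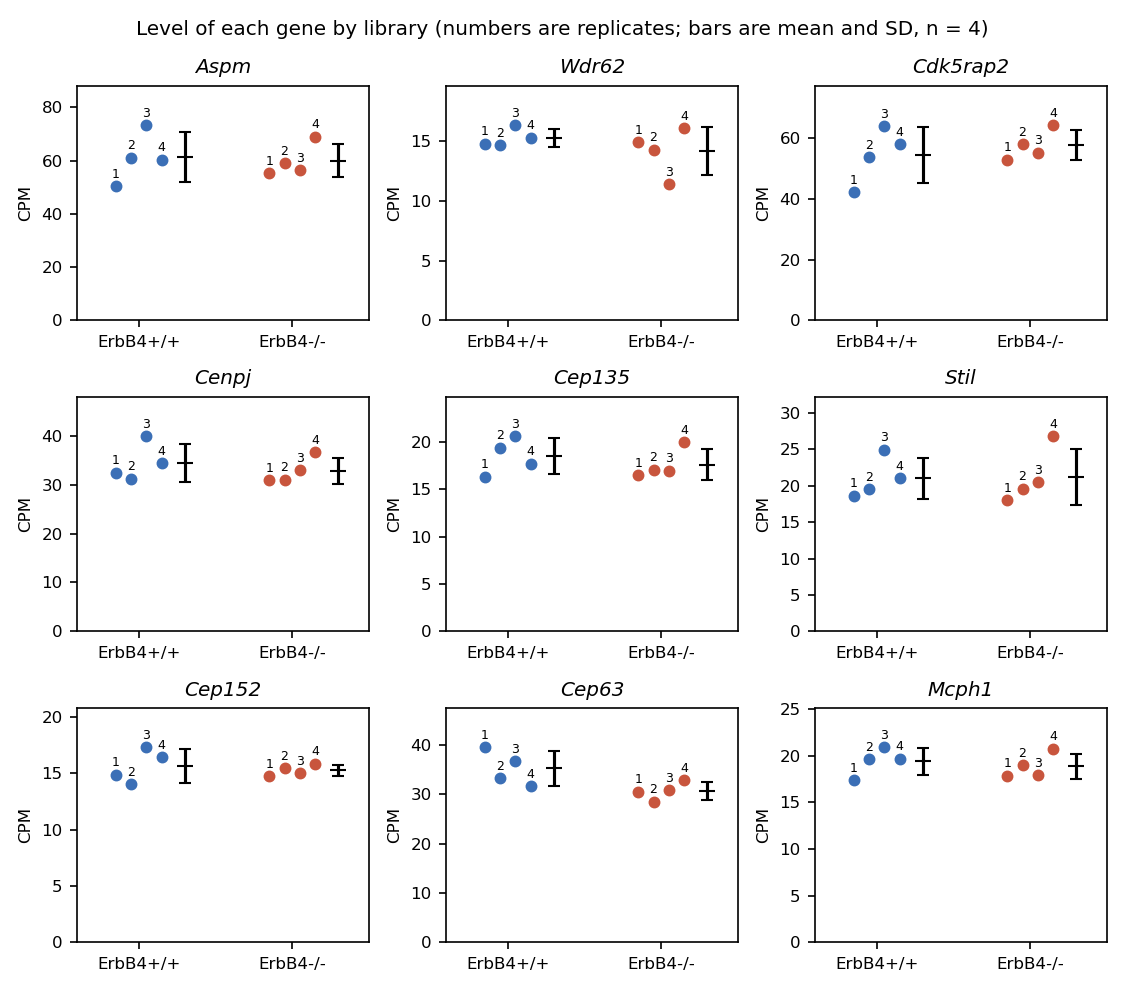
Level of each of the 9 genes in CPM (linear axis from 0) in the 4 ErbB4+/+ libraries (blue) and the 4 libraries labelled ErbB4-/- (red). Points are single libraries with their replicate number, and the bars beside them are the mean and SD. The ranges of the genotypes overlap for each gene, and for 6 of the 9 the highest library is ErbB4+/+ replicate 3.

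Because the 9 genes tended to be high or low in the same libraries, as described further on, the upstream sequence of a few of them is shown first. Genes of the mitotic phase are known for promoters with CCAAT boxes, bound by the factor NF-Y, and with CHR elements, bound by the DREAM and MuvB complexes. In the RefSeq promoter table (built on GRCm38.p6), 8 of the 9 genes had an entry, with 2 starts for Wdr62. Mcph1 had none. The 250 bases before the start were searched on both strands for the letters CCAAT, which read as ATTGG on the other strand, and each window was placed on NCBIM37 (mm9), the build of the count data, by an exact match. The first windows of the 4 genes with 3 matches each are printed here. The second window of Wdr62, which overlaps its first and holds the same 3 matches, is left out, and that of Cenpj, which held none, is printed for comparison. Each runs 5′ to 3′ on the strand of the gene and ends at the base before its start, and capitals mark the letters CCAAT or ATTGG.
Aspm, chr1:141351100-141351349, plus strand: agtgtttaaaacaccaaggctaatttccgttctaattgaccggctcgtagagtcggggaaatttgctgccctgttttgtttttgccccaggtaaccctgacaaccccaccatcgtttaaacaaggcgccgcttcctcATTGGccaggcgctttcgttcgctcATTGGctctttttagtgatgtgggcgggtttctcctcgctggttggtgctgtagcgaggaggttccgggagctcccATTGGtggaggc
Wdr62, chr7:31065441-31065690, minus strand: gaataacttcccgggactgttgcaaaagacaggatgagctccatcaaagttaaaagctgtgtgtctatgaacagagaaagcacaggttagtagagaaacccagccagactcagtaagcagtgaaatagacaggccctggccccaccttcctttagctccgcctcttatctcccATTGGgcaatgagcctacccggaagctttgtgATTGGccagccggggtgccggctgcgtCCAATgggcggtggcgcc
Cep152, chr2:125450850-125451099, minus strand: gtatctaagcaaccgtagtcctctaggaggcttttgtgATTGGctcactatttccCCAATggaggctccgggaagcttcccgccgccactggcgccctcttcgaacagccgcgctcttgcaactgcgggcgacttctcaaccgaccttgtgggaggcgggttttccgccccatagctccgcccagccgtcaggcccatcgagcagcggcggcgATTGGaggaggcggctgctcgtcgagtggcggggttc
Stil, chr4:114672473-114672722, plus strand: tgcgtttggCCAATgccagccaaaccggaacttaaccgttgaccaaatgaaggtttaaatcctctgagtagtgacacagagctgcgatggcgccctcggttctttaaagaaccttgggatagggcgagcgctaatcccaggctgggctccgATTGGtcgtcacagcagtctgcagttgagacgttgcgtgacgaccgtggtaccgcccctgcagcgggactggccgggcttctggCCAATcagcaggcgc
Cenpj, chr14:57190684-57190933, minus strand: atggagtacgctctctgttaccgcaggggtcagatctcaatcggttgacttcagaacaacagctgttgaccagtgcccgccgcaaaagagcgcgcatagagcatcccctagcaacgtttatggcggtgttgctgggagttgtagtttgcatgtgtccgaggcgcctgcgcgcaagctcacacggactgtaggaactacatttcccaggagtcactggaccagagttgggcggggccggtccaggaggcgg

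Of the 8 genes with a window, 5 held CCAAT or ATTGG at least once: Aspm, Wdr62, Cep152 and Stil with 3 matches and Cep135 with 1. Cdk5rap2, Cenpj and Cep63 held none. Among all 32851 windows of the table, 33.8% held at least 1 match and 2.79% held 3 or more. Among the first windows of 17492 protein-coding genes these shares were 36.3% and 3.64%. In Aspm the matches began 113, 88 and 12 bases before the start, and in Stil 241, 99 and 15 bases before it. In the first window of Wdr62 they began 77, 45 and 18 bases before the start, and in Cep152 at 212, 195 and 37 bases. The core CHR letters TTTGAA, or TTCAAA on the other strand, were in none of the 250-base windows of these genes, where 16% of all windows held them. With the 50 bases after the start added, 2 of the 8 genes held them (Aspm and Cdk5rap2), against 17.9% of all windows so extended. The E2F-type letters TTTCCCGC, or GCGGGAAA on the other strand, were in the second window of Wdr62, 8 bases before that start, where 0.895% of all windows held them. The letters TTTGGCGC, or GCGCCAAA on the other strand, were in none of the 8 genes, and 0.417% of all windows held them. A match of letters is not evidence of binding, and these data hold no measure of binding.

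Aspm binds microtubule minus ends at the spindle pole and is the gene most often mutated in recessive primary microcephaly. It lies on the plus strand of chromosome 1, chr1:141351350-141390667 (NCBIM37), 72.2 Mb from Erbb4 on the same chromosome. Its level was 50.5, 61.2, 73.4 and 60.4 CPM in ErbB4+/+ replicates 1 to 4 and 55.4, 58.9, 56.5 and 69.0 CPM in the libraries labelled ErbB4-/-. The lowest and the highest library were both ErbB4+/+, and the range of the other genotype lay wholly inside theirs. The mean was 61.4 ± 9.37 CPM (SD, n = 4) against 60.0 ± 6.20 CPM (SD, n = 4). The log2 fold change was -0.03 ± 0.11 (SE; edgeR, adjusted p = 0.952), with a 95% interval from -0.27 to 0.20, or from 17.0% lower to 14.9% higher.

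Wdr62 is a spindle pole scaffold that binds JNK and helps Aspm keep its place there. The gene lies at chr7:31025157-31065438 on the minus strand. Its level was 14.8, 14.7, 16.4 and 15.3 CPM in the ErbB4+/+ libraries and 14.9, 14.3, 11.4 and 16.1 CPM in the libraries labelled ErbB4-/-. Replicate 3 of the latter was the lowest of the 8, and the other 3 lay among the ErbB4+/+ values or next to them. The log2 fold change was -0.11 ± 0.11 (SE; edgeR, adjusted p = 0.8294; 95% interval -0.34 to 0.12). Of its exons, 264 bases are shared with Thap8 on the opposite strand, and since the libraries do not mark strand, reads of the overlap cannot be told apart.

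Cdk5rap2 holds γ-tubulin ring complexes in the pericentriolar material. It lies at chr4:69877890-70071477 on the minus strand, and its exons share 365 bases with the pseudogene Gm11226 of the same strand. Its level was 42.2, 53.7, 63.9 and 58.01 CPM in the ErbB4+/+ libraries and 52.9, 57.96, 55.2 and 64.3 CPM in the libraries labelled ErbB4-/-. ErbB4+/+ replicate 1 was well below the other 7 libraries, among which the genotypes overlapped. Cdk5rap2 had the highest log2 fold change of the 9, 0.08 ± 0.11 (SE; edgeR, adjusted p = 0.877; 95% interval -0.17 to 0.32). Without ErbB4+/+ replicate 1 it was -0.03.

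Cep152 is the scaffold that brings Plk4 to the parent centriole. It lies at chr2:125388824-125450849 on the minus strand. Its level was 14.9, 14.02, 17.3 and 16.5 CPM in the ErbB4+/+ libraries and 14.8, 15.45, 15.01 and 15.9 CPM in the libraries labelled ErbB4-/-. The latter lay close together and inside the ErbB4+/+ range, with an SD of 0.476 CPM against 1.501 CPM. Its log2 fold change was -0.04 ± 0.085 (SE; edgeR, adjusted p = 0.924; 95% interval -0.23 to 0.15).

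Cep63, the partner of Cep152 in the ring around the parent centriole, had the lowest log2 fold change of the 9. It lies at chr9:102488908-102528864 on the minus strand. Its level was 39.6, 33.3, 36.8 and 31.7 CPM in ErbB4+/+ replicates 1 to 4 and 30.6, 28.5, 30.9 and 32.8 CPM in the libraries labelled ErbB4-/-. The 3 highest libraries were ErbB4+/+ replicates 1 to 3, and ErbB4+/+ replicate 4 lay inside the range of the libraries labelled ErbB4-/-. The mean was 35.3 ± 3.56 CPM (SD, n = 4) against 30.7 ± 1.77 CPM (SD, n = 4), which is 13.1% lower. The log2 fold change was -0.20 ± 0.082 (SE; edgeR, unadjusted p = 0.0306, adjusted p = 0.810), with a 95% interval from -0.38 to -0.02. The exact two-sided permutation test of the 8 CPM values gave p = 0.0571, where 0.0286 is the smallest p this design allows.

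Each ErbB4+/+ library that was high for Cep63 also carried Xist. With Xist as a covariate in the edgeR fit, the log2 fold change of Cep63 was -0.06 (unadjusted p = 0.665), and the 95% interval widened to between -0.33 and 0.22. Without ErbB4+/+ replicate 1, the library with the trend on transcript length, it was -0.14 (edgeR, unadjusted p = 0.0600). With that trend removed by an offset in the edgeR fit it was -0.26 (unadjusted p = 0.0272, adjusted p = 0.697). No gene of the 9 kept an unadjusted p under 0.05 without ErbB4+/+ replicate 1 or 3, where 5.93% and 5.78% of all genes did. The same held without ErbB4-/- replicate 1, 2 or 3, where 3.63%, 2.9% and 3.43% of all genes passed. Cep63 was at -0.18 without ErbB4+/+ replicate 3 (edgeR, unadjusted p = 0.0708). Exons of Cep63 share 51 bases with Anapc13, a gene of the opposite strand with a mean of 27.2 CPM.

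Stil is the partner of Sas-6 and Plk4 in starting a new centriole. It lies at chr4:114672723-114715801 on the plus strand. Its level was 18.6, 19.5, 24.9 and 21.0 CPM in the ErbB4+/+ libraries and 18.05, 19.6, 20.5 and 26.8 CPM in the libraries labelled ErbB4-/-. The lowest and the highest of the 8 were both labelled ErbB4-/-. Between genotypes the log2 fold change was 0.01 ± 0.13 (SE; edgeR, adjusted p = 0.990), and its 95% interval of -0.27 to 0.29 was the widest of the 9. The sign of this value depended on the setting, and leaving out ErbB4-/- replicate 4 gave -0.12.

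Cep135 lies in the cartwheel of the centriole, and its gene is at chr5:77017723-77075491 on the plus strand. Its level was 16.3, 19.4, 20.6 and 17.7 CPM in the ErbB4+/+ libraries and 16.4, 17.0, 17.0 and 19.9 CPM in the libraries labelled ErbB4-/-. Among the latter, replicate 4 stood above the other 3, which lay close together. Its log2 fold change was -0.07 ± 0.096 (SE; edgeR, adjusted p = 0.863; 95% interval -0.28 to 0.13).

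Cenpj (CPAP), which binds tubulin and controls centriole length, lies at chr14:57145598-57190683 on the minus strand. Its level was 32.4, 31.3, 39.9 and 34.4 CPM in the ErbB4+/+ libraries and 30.9, 31.0, 32.9 and 36.6 CPM in the libraries labelled ErbB4-/-. ErbB4+/+ replicate 3 was the highest, and the lowest values of the genotypes were nearly equal. Between genotypes the log2 fold change was -0.07 ± 0.090 (SE; edgeR, adjusted p = 0.860; 95% interval -0.27 to 0.12).

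Mcph1 (microcephalin) inhibits condensin II and so keeps chromosomes from condensing early. It lies at chr8:18595131-18803189 on the plus strand, where its exons share 190 bases with the long noncoding RNA Gm16725 of the opposite strand. Angpt2 lies inside it on that strand and shares no exon bases. Its level was 17.4, 19.6, 20.9 and 19.7 CPM in the ErbB4+/+ libraries and 17.9, 19.0, 17.95 and 20.7 CPM in the libraries labelled ErbB4-/-. The ErbB4+/+ range enclosed that of the other genotype. The log2 fold change was -0.04 ± 0.084 (SE; edgeR, adjusted p = 0.918; 95% interval -0.22 to 0.14). No gene of the 9 other than Cep63 had an interval that left out 0, and over all 9 the intervals reached down to 23.2% lower (Cep63) and up to 25.1% higher (Cdk5rap2).

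**Figure D2:**
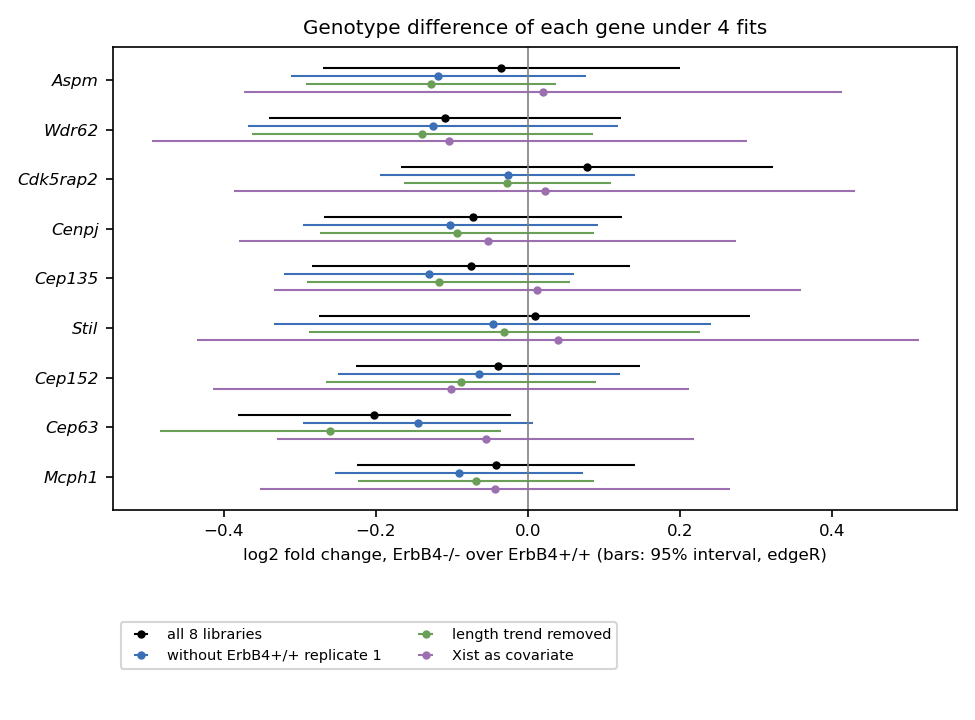
Log2 fold change of each of the 9 genes, libraries labelled ErbB4-/- over ErbB4+/+, with its 95% interval in 4 edgeR fits: all 8 libraries (black), without ErbB4+/+ replicate 1 (blue), with the length trend removed (green) and with Xist as a covariate (purple). In the fit of all libraries only the interval of Cep63 leaves out 0. Without ErbB4+/+ replicate 1, and also with the length trend removed, all 9 points lie below 0. With Xist as a covariate 5 lie below 0 and 4 above.

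The signs of some of these small differences depended on single libraries, while Cep63, Mcph1 and Wdr62 stayed below 0 in each alternative run. Without ErbB4+/+ replicate 1, all 9 genes had log2 fold changes below 0, from -0.14 (Cep63) to -0.03 (Cdk5rap2), with a median of -0.10, while 50.6% of all genes were below 0. No gene of the 9 had an unadjusted p under 0.05 in that fit, where 5.93% of all genes did. With all libraries kept and the length trend removed, all 9 were below 0 as well (49.8% of all genes), with a median of -0.09. Without ErbB4+/+ replicate 3, only 4 of the 9 were below 0 (50.9% of all genes) and the median was 0.0067. Without ErbB4-/- replicate 4, 8 of the 9 were below 0 (52.3% of all genes) and the median was -0.12, and the lowest adjusted p of the 9 was 0.568. Cep63 was then lower in each remaining library labelled ErbB4-/- than in any ErbB4+/+ library, where 9.95% of all genes had genotypes that did not overlap. The same held without ErbB4+/+ replicate 4, where 5.79% of all genes did. With Xist as a covariate 5 of the 9 were below 0 (49.5% of all genes). ErbB4+/+ replicate 4 is the 1 ErbB4+/+ library that shares low Xist and high Ddx3y with those labelled ErbB4-/-. It lay inside their range for 8 of the 9 genes, and for Cep152 it was above them, at 16.5 CPM against a highest value of 15.9 CPM. ErbB4+/+ replicate 2, which has high Xist, also lay inside their range for all genes but Cep152 and Cep63. It was below them for Cep152 (14.02 CPM) and above them for Cep63 (33.3 CPM). Whether sex has a part in these positions was not tested.

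Much of the spread of the 9 genes lay between libraries of 1 genotype. The coefficient of variation within genotypes ran from 7.20% (Cep152) to 15.9% (Stil), against 2.14% to 4.35% from counting error alone. ErbB4+/+ replicate 3 and ErbB4-/- replicate 4 were above the mean of the 8 libraries in log2 CPM for all 9 genes, although Cep63 in the latter was above it by 0.0001 only and was below the mean in CPM. ErbB4-/- replicate 3 was above the mean of log2 CPM for none. ErbB4+/+ replicate 3 was the highest library for 6 of the 9, and ErbB4-/- replicate 4 was the highest for Cdk5rap2 and Stil. ErbB4+/+ replicate 1 was the lowest for Aspm, Cdk5rap2, Mcph1 and Cep135 and the highest for Cep63. Averaged over the 9 genes, the deviation in log2 CPM from the mean of the 8 libraries was -0.10, -0.02, 0.20 and 0.02 in ErbB4+/+ replicates 1 to 4 and -0.10, -0.06, -0.09 and 0.15 in the libraries labelled ErbB4-/-. The genotype means were 0.03 and -0.03, closer together than the lowest and the highest library of either genotype.

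As a description over the 8 libraries, Pearson's r of log2 CPM was above 0 for 35 of the 36 pairs among the 9 genes, with a median of 0.62. The highest were Aspm with Mcph1 (0.96), Aspm with Cep135 (0.93) and Mcph1 with Cep135 (0.93). The lowest was Cdk5rap2 with Cep63 (-0.40). Without ErbB4+/+ replicate 1 all 36 pairs were above 0, from 0.40 to 0.94 with a median of 0.77, and Cdk5rap2 with Cep63 was at 0.51. The pairs share libraries, depth and any effect of transcript length, and r was given no test. By the same measure, the gene outside the 9 with the most similar pattern over the 8 libraries was Tmem2 for Aspm (r 0.98), Tonsl for Wdr62 (0.98), Kif13a for Cdk5rap2 (0.99), Zbtb3 for Cep152 (0.96), Ddx42 for Cep63 (0.99), Gas2l3 for Stil (0.97), Rsph3b for Cep135 (0.97), Polr2b for Cenpj (0.98) and Pcnt for Mcph1 (0.99). Of these, Pcnt encodes pericentrin, a scaffold of the pericentriolar material that is itself a gene of microcephalic dwarfism. With 14696 genes and 8 libraries a high r is found for many genes.

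Per length, Cenpj was the most abundant of the 9 genes. Levels between genes were compared as CPM per kilobase of the exons annotated in GENCODE on NCBIM37, averaged over the 8 libraries. Its level was 7.72 ± 0.731 (SD, n = 8), followed by Aspm at 5.28, Cep63 at 4.43, Cdk5rap2 at 4.30 and Stil at 3.62. Cep152 at 2.68, Wdr62 at 2.57, Cep135 at 2.51 and Mcph1 at 2.45 formed the low end on this scale. Among neighbours in this order, only Cenpj over Aspm and Stil over Cep152 had ranges over the libraries that did not overlap. Cdk5rap2 was above Stil in 8 of 8 libraries and Aspm above Cep63 in 7 of 8, although the ranges overlapped. Cep63 was above Cdk5rap2 in 4 of 8, and the last 4 genes could not be ordered beyond their spread. The median of all 14281 tested genes with a length was 7.58 CPM per kilobase. Cenpj was near it, with 50.4% of genes below, and the other 8 had from 27.8% (Mcph1) to 41.2% (Aspm) of genes below them. The exon lengths are those of all annotated transcripts joined, from 4363 bases (Cenpj) to 13018 bases (Cdk5rap2), and a gene with exons little used in this tissue reads too low on this scale. Over the longest transcript instead the order changed, with Mcph1 at 4.11 above Stil at 3.94, Cep135 at 3.21, Wdr62 at 3.09 and Cep152 at 2.68 CPM per kilobase.

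**Figure D3:**
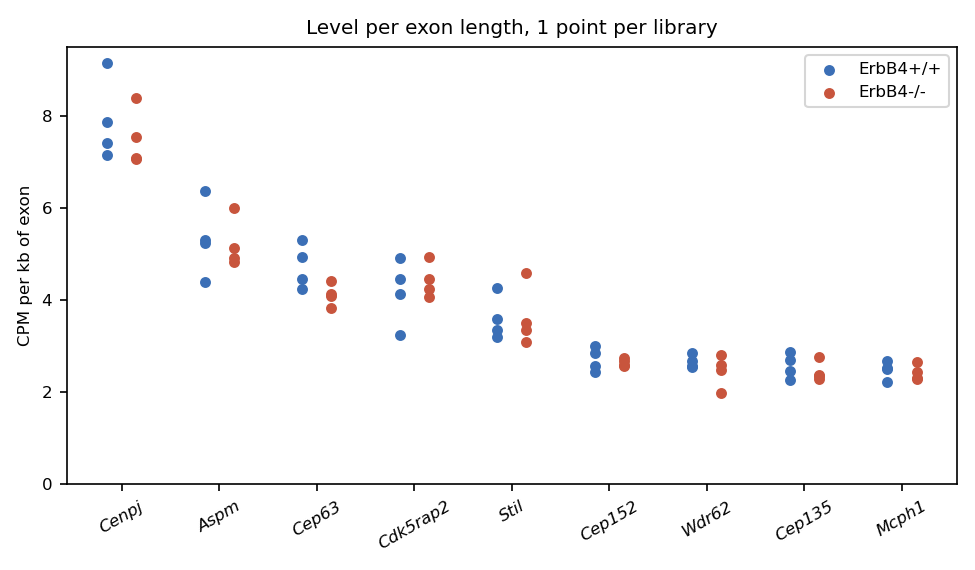
Level of the 9 genes in CPM per kilobase of exon (linear axis from 0), in descending order of the mean, with 1 point for each ErbB4+/+ library (blue) and each library labelled ErbB4-/- (red). Cenpj lies above all others without overlap, and the 4 genes from Cep152 to Mcph1 lie between 1.98 and 3.01.

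The other genes of the pathway were taken as lists and described by counts, beside which 50.8% of all genes were below 0 and 5.53% had an unadjusted p under 0.05. No gene of any list passed an adjusted p of 0.05. Among 21 further genes of centriole duplication, 5 had log2 fold changes above 0 and 16 below, with a median of -0.03, and none had an unadjusted p under 0.05. Spice1, which is needed for centriole copying, had the smallest unadjusted p of them (log2 fold change -0.15, edgeR unadjusted p = 0.0980), followed by Cep57 (-0.12) and Cntrob (-0.08). The median of this list was -0.06 without ErbB4+/+ replicate 1. Among 18 genes of the pericentriolar material, 6 were above 0 and 12 below, the median was -0.02, and none had an unadjusted p under 0.05. Nin, a microtubule anchor of the parent centriole, was at 0.13 (edgeR unadjusted p = 0.0799), Tubg1, which encodes γ-tubulin, at -0.12, and Mzt2, a γ-tubulin complex protein, at -0.14. Both of the latter rested on ErbB4+/+ replicate 1, and without it they were at -0.03 and -0.02. In that fit 16 of the 18 genes were below 0 (50.6% of all genes), the median was -0.0305 against -0.0150 with all libraries, and Tubgcp6, a γ-tubulin complex gene, was lower at an unadjusted p under 0.05 (-0.13, edgeR unadjusted p = 0.0453).

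Of 25 genes of the spindle and its poles, 5 were above 0 and 20 below, with a median of -0.12, and 2 had an unadjusted p under 0.05, both lower. The median was -0.07 without ErbB4+/+ replicate 1, the same as that of the other microcephaly genes described next and nearer 0 than that of the 9 genes in that fit (-0.10). The number with an unadjusted p under 0.05 was 9 without ErbB4-/- replicate 4 (7.73% of all genes) and 7 without ErbB4+/+ replicate 2 (9.4%). It was 0 without ErbB4-/- replicate 1 (3.63%) or 3 (3.43%) and with Xist as a covariate (1.71%). The median with Xist as a covariate was -0.08. The 2 genes were Haus7, a subunit of the augmin complex that branches microtubules (log2 fold change -0.21, edgeR unadjusted p = 0.0256, and -0.13 without ErbB4+/+ replicate 1), and Plk1, the kinase that matures centrosomes at mitosis (-0.20, unadjusted p = 0.0271). Haus7 lies on the X chromosome. It was at 43.9, 35.04 and 36.3 CPM in ErbB4+/+ replicates 1 to 3, which have high Xist. In ErbB4+/+ replicate 4, of low Xist, it was at 33.8 CPM. Its highest value in the libraries labelled ErbB4-/- was 33.1 CPM. The part of sex in the difference of Haus7 was not tested. Dlgap5, a spindle microtubule stabiliser, was at -0.22 (edgeR unadjusted p = 0.0701). Of 21 other genes of primary microcephaly, 5 were above 0 and 16 below, with a median of -0.05, and 3 were lower at an unadjusted p under 0.05. That number was 0 with Xist as a covariate (1.71% of all genes), where the median was -0.05. With 1 library left out the number ran from 0 (without ErbB4-/- replicate 2, 2.9% of all genes) to 4. With the length trend removed, 5 had an unadjusted p under 0.05 (7.06% of all genes). The 3 genes were Nup37, of the nuclear pore (-0.27, edgeR unadjusted p = 0.0172), Lmnb2, a lamin of the nuclear envelope (-0.13, unadjusted p = 0.0347), and Ncaph, a condensin I subunit (-0.22, unadjusted p = 0.0366). Lmnb2 was at 92.8, 90.2, 88.1 and 92.8 CPM in the ErbB4+/+ libraries and at 85.8, 84.9, 78.5 and 84.1 CPM in the libraries labelled ErbB4-/-. Lmnb2 and Haus7 had genotypes that did not overlap, as 3.34% of all genes did. None of the 3 other microcephaly genes named acts at the centrosome as its main site. Of 12 genes of the mitotic surveillance pathway and targets of p53, 4 were above 0 and 8 below, with a median of -0.01, and none had an unadjusted p under 0.05. Phlda3 (-0.23), Bax (-0.15) and Bbc3 (0.20), all induced by p53, had the smallest p of that list, from 0.106 to 0.239 before adjustment in edgeR. In the fit that leaves out ErbB4+/+ replicate 1, Bax was at -0.02 and Bbc3 at 0.34, and Bbc3 then had an unadjusted p of 0.0376 in edgeR.

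**Figure D4:**
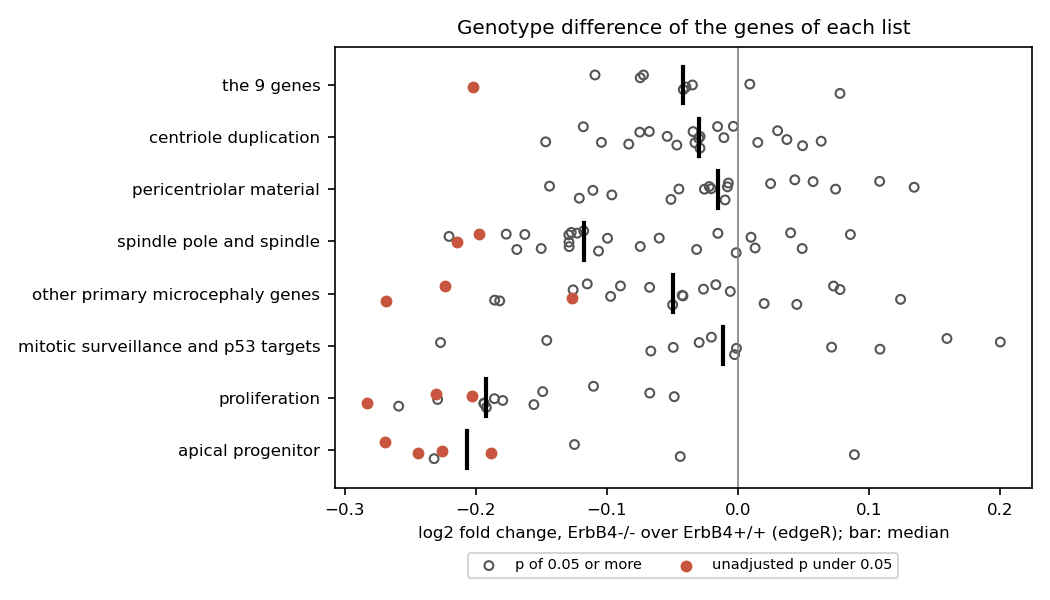
Log2 fold change, libraries labelled ErbB4-/- over ErbB4+/+, of each tested gene in the 9 genes, in 6 lists of related genes and in the apical progenitor markers. Filled red points have an unadjusted edgeR p under 0.05 and vertical bars are the medians, which run from -0.21 (apical progenitor) to -0.01 (mitotic surveillance and p53 targets), with -0.04 for the 9 genes.

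The proliferation list held genes of dividing cells, and none of its 15 passed the adjusted threshold. All 15 genes of the proliferation list were below 0, with a median of -0.19, and 3 had an unadjusted p under 0.05. These were Cdc20, the activator of the anaphase-promoting complex (-0.28, edgeR unadjusted p = 0.0151), the mitotic kinase gene Aurkb (-0.23, unadjusted p = 0.0287) and Mcm2 of the replicative helicase (-0.20, unadjusted p = 0.0417). Without ErbB4-/- replicate 4 that number was 13, and without ErbB4+/+ replicate 2 it was 11, in fits where 7.73% and 9.4% of all genes had an unadjusted p under 0.05. It was 1 without ErbB4+/+ replicate 3 (5.78% of all genes) or ErbB4-/- replicate 1 (3.63%), 2 (2.9%) or 3 (3.43%). With Xist as a covariate it was 0 (1.71% of all genes), and the median was -0.13. Of the 8 apical progenitor markers, 7 were below 0 with a median of -0.21, and Pax6, Hes1, Nes and Vim had an unadjusted p under 0.05 (edgeR, adjusted p = 0.810 for each). That number was 1 with Xist as a covariate (1.71% of all genes), where the median was -0.22. The number was 1 without ErbB4-/- replicate 1 (3.63%) or 2 (2.9%) and 2 without ErbB4+/+ replicate 4 (4.95%). Over the alternatives the median ran from -0.27 to -0.14. Leaving out ErbB4+/+ replicate 1, the median was -0.14, 3 markers were lower at an unadjusted p under 0.05, and Fabp7 was higher (0.11, edgeR unadjusted p = 0.0408).

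Among markers of other cell types, none passed the adjusted threshold. The meningeal, endothelial and microglia lists had 0 genes with an unadjusted p under 0.05 (edgeR) and medians of 0.04, 0.05 and 0.01. Of the 6 red blood cell genes, 4 could be tested, 1 above 0 and 3 below, with a median log2 fold change of -0.69. Over the alternatives this median ran from -1.23 to -0.32, the latter with Xist as a covariate. Alas2, of heme synthesis, was the one above 0 (0.21), and 2 were above 0 without ErbB4+/+ replicate 1. The embryonic globin gene Hbb-y was at 13.9 to 34.6 CPM in the ErbB4+/+ libraries and 3.69 to 18.3 CPM in the libraries labelled ErbB4-/- (edgeR unadjusted p = 0.00271, adjusted p = 0.810). Hba-x was at 4.87 to 6.96 CPM and 1.60 to 5.08 CPM (edgeR unadjusted p = 0.00221, adjusted p = 0.740). Hba-a1 was at 0 in all libraries, and Hbb-b1 was at 0.036 CPM in ErbB4+/+ replicate 1 and at 0 in the others. Why these 2 globin genes had almost no counts was not tested. The list summed to 31.7 to 56.1 CPM and 20.7 to 34.8 CPM, which is therefore no measure of blood content. Of the 6 glial genes, 5 could be tested and all 5 were above 0, with a median of 0.31. Gfap, the astrocyte filament gene, was at 0.571 to 0.930 CPM and 0.858 to 2.07 CPM (log2 fold change 1.04, edgeR unadjusted p = 0.00454, adjusted p = 0.810). Pdgfra, of oligodendrocyte precursors, was at 12.9 to 17.2 CPM and 14.3 to 21.3 CPM (0.31, edgeR unadjusted p = 0.0386), and without ErbB4+/+ replicate 1 its unadjusted p was 0.0883. The glial list summed to 43.9 to 57.7 CPM and 48.8 to 64.3 CPM. With Xist as a covariate, no gene of either list had an unadjusted p under 0.05, where 1.71% of all genes did. The median of the glial list was 0.44 in that fit. The part of these cells in the levels of the 9 genes was not tested.

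The 9 genes followed the proliferation list over the libraries in part. The mean deviation of the proliferation list was 0.16, -0.11, 0.24 and 0.05 in ErbB4+/+ replicates 1 to 4 and -0.15, -0.19, -0.16 and 0.14 in the libraries labelled ErbB4-/-. Both lists were high in ErbB4+/+ replicate 3 and ErbB4-/- replicate 4 and low in the other 3 libraries labelled ErbB4-/-. They parted in ErbB4+/+ replicate 1, where the proliferation list was at 0.16, the apical progenitor markers at 0.22 and the 9 genes at -0.10. This is the library whose deviation fell with transcript length, and the part of length in this parting was not tested. The 21 other microcephaly genes were at -0.09 in that library and had the pattern of the 9 genes elsewhere, with 0.15 in ErbB4+/+ replicate 3 and 0.08 in ErbB4-/- replicate 4. The markers of postmitotic excitatory neurons were at 0.07, -0.04, -0.11 and 0.03 in ErbB4+/+ replicates 1 to 4. In the libraries labelled ErbB4-/- they were at -0.07, 0.04, 0.08 and -0.02. Summed, the 9 genes came to 247 to 314 CPM in the ErbB4+/+ libraries and 252 to 302 CPM in the others, and the 15 proliferation genes to 1307 to 1700 CPM and 1254 to 1563 CPM. The part of cell composition in the levels of the 9 genes was not tested.

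**Figure D5:**
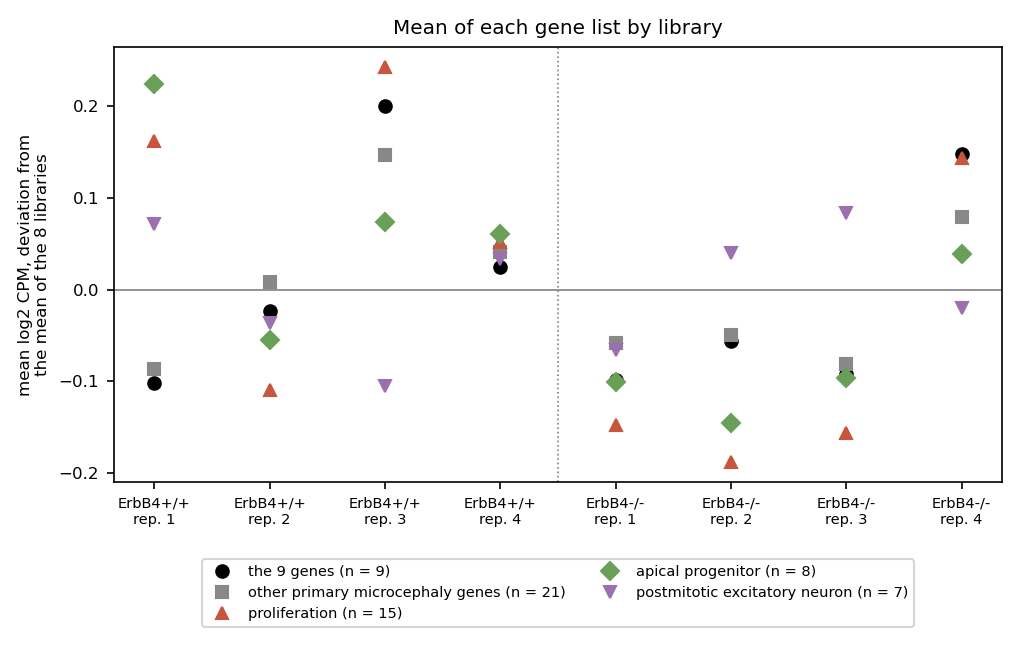
Mean deviation of log2 CPM from the mean of the 8 libraries, by library, for the 9 genes (black circles), 21 other primary microcephaly genes (grey squares), 15 proliferation genes (red triangles), 8 apical progenitor markers (green diamonds) and 7 postmitotic excitatory neuron markers (purple triangles). The 9 genes are highest in ErbB4+/+ replicate 3 (0.20) and ErbB4-/- replicate 4 (0.15), and in ErbB4+/+ replicate 1 they lie at -0.10 while the proliferation genes lie at 0.16.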

How the data were processed

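RNA-seq of polyA RNA was analysed in 4 ErbB4+/+ and 4 ErbB4-/- labelled libraries of E15.5 dorsal cortex. Per the methods, libraries did not mark strand, and the authors aligned single-end reads with HISAT (mm9) and made gene counts with HTSeq-count. The deposited counts are whole numbers, not normalized. A deposited DESeq2 table holds only the authors' own comparison and was not used.

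Counts were fitted with the quasi-likelihood model of edgeR 4.0.16 (R 4.3.3, TMM factors). The filter filterByExpr, set to min.count 10 and min.total.count 15, left 14696 genes, over which p-values were adjusted by Benjamini-Hochberg and called at 0.05. Library totals ran from 28205703 to 48871480 counts and the common biological coefficient of variation was 10.7%. CPM values use TMM effective library sizes, and log2 CPM has a prior count of 2. For single values an exact permutation test (two-sided) was run. Alternatives were DESeq2 1.42.0, limma-voom (limma 3.58.1), relative log expression (RLE) and upper-quartile factors, an unfiltered table, genes averaging 50 counts or more, a replicate block, Xist as a covariate, a lowess trend on transcript length (span 0.3) removed by an offset, a prior count of 0.5, and leaving out single libraries. The scripts were tested on simulated data. The members and all lists were chosen with earlier results of these data known. The text names all 9 members, from each pathway list the 3 genes with the smallest unadjusted p, Erbb4, Xist, Ddx3y and, for each member, the gene of most similar pattern. Gene positions and lengths are from GENCODE on NCBIM37, and promoters from RefSeq. Other genes (Lhx2, Emx1, Lum, Nkx2-1, Pax6, Hes1, Nes, Vim, Fabp7, Tubgcp6, Hbb-y, Hba-x, Hba-a1, Hbb-b1, Alas2, Gfap, Pdgfra) are named from the lists, some after their values were seen.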

Additional observations from a re-analysis of the deposited data

Results flagged for a closer look

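In the libraries labelled ErbB4-/-, Cep135 was at 19.949 CPM in replicate 4 and between 16.4 and 17.0 CPM in the other 3, a gap of 0.832 of the whole range and above the 95% critical value of Dixon's test. The 15 proliferation genes summed to 1563.3 CPM in the same library and to between 1254 and 1266 CPM in the other 3, a gap of 0.964 of the range. These were 2 of 52 sets of 4 libraries checked, and chance gives such a gap in about 1 set of 20.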

How the results depend on the processing

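The number of the 9 genes past the adjusted threshold was 0 under every alternative run. Counts over all genes moved: 4 genes passed with edgeR, 23 with DESeq2, 1 with RLE factors, 1 with upper-quartile factors, 1 with Xist as a covariate and 2 with the length trend removed. With 1 library left out the count ran from 1 to 13. The cause was not tested. The number of the 9 with an unadjusted p under 0.05 was 0 with Xist as a covariate, where 1.71% of all genes passed. With 1 library left out it ran from 0 to 1, in fits where 2.9% to 9.4% of all genes passed. The number with genotypes that did not overlap ran from 0 to 1, and the median log2 fold change from -0.12 to 0.0067. Signs turned for genes near 0. With Xist as a covariate Aspm was at 0.02 and Cep135 at 0.0127. With the length trend removed Cdk5rap2 was at -0.0269 and Stil at -0.0307, and with limma-voom Stil was at -0.0191. With 1 library left out, Aspm ran from -0.12 to 0.0633, Cdk5rap2 from -0.0262 to 0.16, Cenpj from -0.13 to 0.0067, Cep152 from -0.0895 to 0.013 and Stil from -0.12 to 0.10. Cep63, Mcph1 and Wdr62 stayed below 0 in all 17 alternatives.

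The replicate number as a block left 1 gene past the threshold in all and 0 of the 9. Deviations of same-numbered libraries correlated at 0.08, 0.13, 0.05 and 0.02, so the numbers were not taken as pairs. Counting error was 2.14% to 4.35% for the 9 genes, which was a larger part of the spread for low genes such as Cep152 (4.24%, beside a coefficient of variation within genotypes of 7.20%). Changes smaller than the intervals given could not be seen. Xist splits the ErbB4+/+ libraries 3 to 1, so the fit with Xist rests on 1 ErbB4+/+ library of low Xist.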
